A study of Mus musculus with 4 samples.

Results

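The 10 genes described here are transcription factors specific to naïve mouse pluripotency, namely Klf2, Klf4, Klf5, Esrrb, Tfcp2l1, Tbx3, Nr0b1, Nr5a2, Zfp42 and Prdm14. They were taken by symbol from the 23235 symbols of the deposited tables, in which all 10 were found. Each table holds the FPKM of a single library, a measure of fragments scaled by transcript length and by library size. The libraries came from HG165, an androgenetic mouse haESC line derived from C57BL/6 mice, which carries a paternal genome alone. Cells received either DMSO as the control or RDF, which combines Repsox, a TGF-β receptor inhibitor, the BMP inhibitor DMH1 and Forskolin, which activates adenylate cyclase. Each group has 2 libraries. Culture was in general in medium with serum and LIF, which both groups then share, whereas 2i, the inhibitors of GSK-3 and MEK, was used where noted and is not named for these libraries. The growth notes name feeder cells, while the study's methods limit feeders to assays among which RNA-seq is not listed. HG165 is a single line, and the sources used here do not tie a dose, a length of treatment or a share of diploid cells to these libraries. Nothing states that replicates were separate cultures, so p-values measure the spread between these libraries, which may be technical.

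Naïve ESCs are held by a web of transcription factors that LIF, Wnt and ERK signals feed into, and the same factors are lost when cells move towards primed pluripotency. Klf4 and Tfcp2l1 are known targets of LIF through STAT3, Esrrb is repressed by the Wnt effector Tcf7l1, and Klf2 is sensitive to ERK activity. Klf2, Klf4 and Klf5 bind the same GC-rich CACCC elements and can stand in for each other. Esrrb and Nr5a2 are orphan nuclear receptors with closely related DNA sites, while Nr0b1 (also called Dax1) lacks the usual DNA-binding zinc fingers and acts through other factors, Oct4 and Nr5a2 among them. Zfp42 (Rex1), a zinc finger protein related to Yy1, is the standard marker of the naïve state. Prdm14 holds DNA methyltransferase genes and FGF receptors down, and Tbx3 is a T-box factor downstream of LIF and PI3K.

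RDF-treated cells had more RNA of part of this network. Zfp42, Klf4, Nr0b1, Tfcp2l1 and Klf2 rose, by between 1.32 and 1.84 times in mean FPKM. Esrrb, Nr5a2, Prdm14, Klf5 and Tbx3 did not pass the test. Of the 10 genes, 5 rose and 0 fell by limma at an adjusted p under 0.05 (at an unadjusted p under 0.05, 7 were higher and 0 lower). Over all 11733 genes tested, 13.3% rose and 8.28% fell by the same rule. Both RDF values lay above both DMSO values in 7 of the 10 genes and below in 0, against 37.1% and 28.5% of all genes tested. The median log2 fold change of the 10 genes was 0.36, against 0.03 over all genes tested. All 10 had a mean of at least 1 FPKM and were tested. All 10 genes, and the gene lists below, were chosen with earlier results of these data known, so these counts and medians are not independent evidence. Klf4, Nr5a2 and Zfp42 had also been selected by the study from these same libraries. So had Sall4, Zfp296, Otx2, Cldn6, T and Fgf5 of the lists below. The study gives Nr5a2 as increased, which did not pass here, and Fgf5 as down-regulated, which was too low to be tested. With RDF replicate 1 left out 3 of the 10 rose, and with RDF replicate 2 left out 2 rose.

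**Figure D1:**
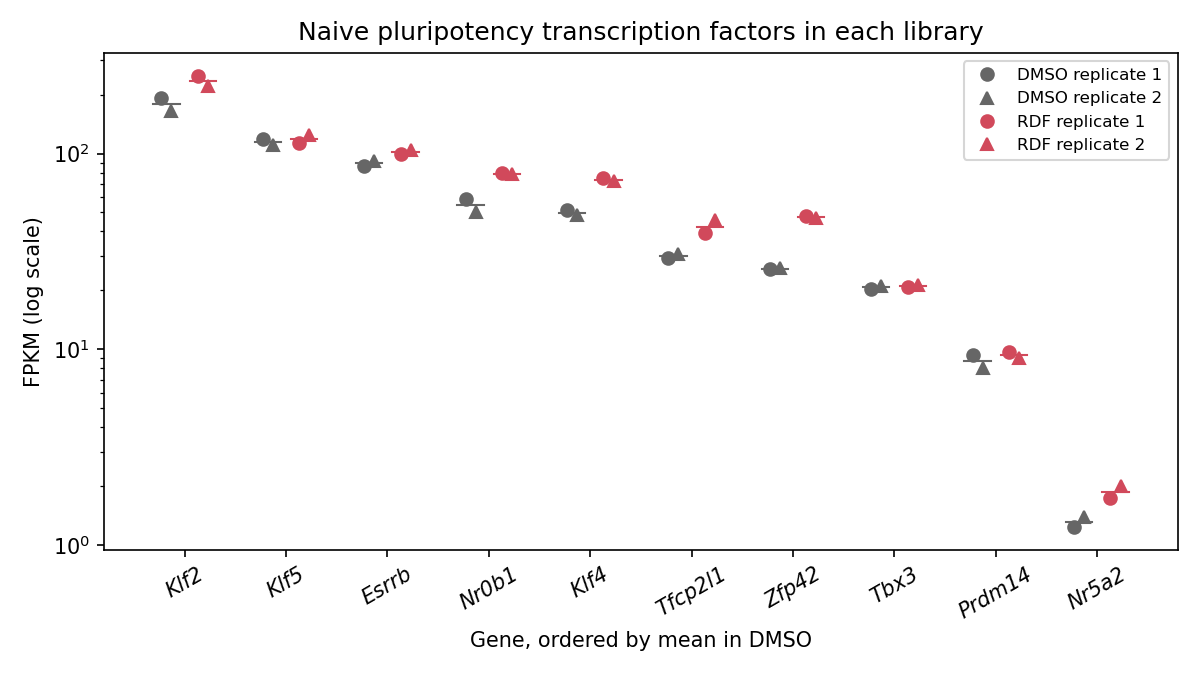
FPKM of the 10 genes (log scale) in each of the 4 libraries, with circles for replicate 1, triangles for replicate 2 and lines at the group means. The RDF libraries (red) lie above the DMSO libraries (grey) for 7 genes, and the values overlap for Klf5, Tbx3 and Prdm14.

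The promoters of Zfp42, Klf4, Nr0b1, Tfcp2l1 and Klf2 are shown because these are the genes that rose. Each is the 250 bases before the RefSeq gene start on build GRCm38.p6, written 5′ to 3′ on the gene's strand. Sequences were matched for 7 of the 10 genes, and Klf5, Tbx3 and Prdm14 are named only. Capitals mark matches on either strand to the Klf motif GGGNGTGG, the octamer ATGCAAAT of Oct4 and TGACG, the core of the cAMP response element.
Zfp42, chr8:43307010-43307259, minus strand: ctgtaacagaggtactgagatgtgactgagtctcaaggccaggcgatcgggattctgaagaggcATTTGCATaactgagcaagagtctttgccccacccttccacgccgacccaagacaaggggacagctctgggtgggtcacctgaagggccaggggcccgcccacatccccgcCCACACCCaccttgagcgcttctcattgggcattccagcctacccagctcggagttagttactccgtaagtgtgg
Tfcp2l1, chr1:118627695-118627944, plus strand: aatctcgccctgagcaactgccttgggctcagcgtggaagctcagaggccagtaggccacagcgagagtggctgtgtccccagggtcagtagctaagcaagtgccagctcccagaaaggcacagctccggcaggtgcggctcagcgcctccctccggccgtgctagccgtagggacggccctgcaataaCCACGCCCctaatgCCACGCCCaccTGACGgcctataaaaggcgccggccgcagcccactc
Klf4, chr4:55532476-55532725, minus strand: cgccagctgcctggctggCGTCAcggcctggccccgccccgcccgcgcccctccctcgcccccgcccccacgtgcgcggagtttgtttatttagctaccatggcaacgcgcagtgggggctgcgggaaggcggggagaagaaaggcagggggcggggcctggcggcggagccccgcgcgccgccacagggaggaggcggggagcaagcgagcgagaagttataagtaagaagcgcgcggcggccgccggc
Nr0b1, chrX:86191525-86191774, plus strand: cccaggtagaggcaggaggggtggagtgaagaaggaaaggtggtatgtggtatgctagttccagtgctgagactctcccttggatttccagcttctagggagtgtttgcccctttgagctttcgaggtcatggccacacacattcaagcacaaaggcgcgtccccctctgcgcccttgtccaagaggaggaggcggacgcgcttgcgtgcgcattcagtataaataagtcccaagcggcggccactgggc
Klf2, chr8:72318812-72319061, plus strand: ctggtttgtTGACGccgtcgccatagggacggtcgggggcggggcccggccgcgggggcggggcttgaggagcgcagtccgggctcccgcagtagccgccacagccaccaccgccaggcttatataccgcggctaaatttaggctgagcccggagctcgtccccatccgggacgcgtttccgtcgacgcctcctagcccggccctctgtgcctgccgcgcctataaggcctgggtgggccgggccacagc
In Zfp42 the capitals are an octamer match (ATTTGCAT) and a Klf match (CCACACCC). In Tfcp2l1 they are 2 copies of the Klf match CCACGCCC followed by TGACG, in Klf4 a single TGACG match on the opposite strand, and in Klf2 a single TGACG. The Nr0b1 promoter held none of these letters. The 7 genes have 9 annotated promoters, and 3 of these 9 held the Klf motif, against 15.9% of all 32851 promoters of the same length. These 3 include a promoter of Nr5a2, which did not pass the test. GC content of the 9 ran from 43.2% to 74%, against a median of 52.4% over all promoters. It was highest for Klf4, Klf2 (71.2%) and Tfcp2l1 (65.2%), and its part in the matches was not tested. The core TGACG was in 4 of the 9 and in 17.8% of all promoters, including a promoter of Esrrb, which did not pass the test. The whole element TGACGTCA, which contains TGACG, in 1.55% of all promoters, the STAT motif TTCCNGGAA, in 0.913%, and the nuclear receptor motif TCAAGGTCA, in 0.387%, were in 0 of the 9. The octamer was in 1 of the 9 and in 1.60% of all promoters. Also searched were the SMAD motifs GGCGCC, in 1 of the 9 and 9.59% of all, and GTCTAGAC, in 0 of the 9 and 0.167% of all. The TCF motif ATCAAAG, in 3.2% of all promoters, and the shorter Esrrb motif CAAGGTCA, in 1.33%, were in 0 of the 9. All of these are letter matches and not binding sites.

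Zfp42 had the largest log2 fold change of the 10 genes. It lies on chromosome 8 from 44380422 to 44392363 (build NCBIM37, which is mm9) and had 25.8 and 25.9 FPKM in DMSO replicates 1 and 2 and 48.1 and 47.0 FPKM in RDF replicates 1 and 2. Replicates were nearly alike, and both RDF values were above both DMSO values. The mean went from 25.9 ± 0.0222 to 47.6 ± 0.776 FPKM (SD, n = 2 each). The log2 fold change on the log2(FPKM + 1) scale was 0.85 (95% interval 0.72 to 0.99, adjusted p = 0.000836 from limma). With about 451 to 1069 fragments behind its values, this call held under every setting tried, with adjusted p between 0.000836 and 0.0264. Among all genes tested, the nearest in pattern over the 4 libraries were Ralgds, an exchange factor for Ral, Ldhb, a lactate dehydrogenase subunit, and Mesdc1, at distances of 0.042, 0.044 and 0.044 in centred log2 values.

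Of the LIF-responsive factors, Klf4 and Tfcp2l1 both rose. Klf4 (chromosome 4, 55540013 to 55545347) had 51.4 and 48.4 FPKM in DMSO and 75.0 and 72.3 FPKM in RDF. Its groups were well apart, with a log2 fold change of 0.55 (95% interval 0.41 to 0.69, adjusted p = 0.00320 from limma), and this call also held under every setting. Tfcp2l1, listed as Tcfcp2l1 in the annotation, lies on chromosome 1 from 120524522 to 120581744. It had 29.4 and 30.5 FPKM in DMSO and 39.1 and 45.7 FPKM in RDF, where the replicates were farther apart than in DMSO. The log2 fold change of Tfcp2l1 was 0.48 (95% interval 0.28 to 0.69, adjusted p = 0.0129 from limma), and without RDF replicate 2 it was 0.37 with an adjusted p of 0.0695. Tbx3, on chromosome 5 from 120120678 to 120134733, stayed at 20.3 and 21.1 FPKM in DMSO and 20.8 and 21.3 FPKM in RDF. The Tbx3 groups overlapped, and the interval of the log2 fold change ran from -0.13 to 0.17 around 0.02 (adjusted p = 0.819), with the sign turning to -0.01 under median-ratio scaling. A gene model on the opposite strand overlaps Tbx3, and how the counting used strand is not given in the sources used here.

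Of the nuclear receptors, Nr0b1 rose while Esrrb and Nr5a2 did not pass, and differences between the genes were not tested. Nr0b1 (chromosome X, 83437103 to 83441286) had 58.4 and 50.2 FPKM in DMSO and 79.6 and 78.4 FPKM in RDF. All of its RDF values exceeded the DMSO values, with a log2 fold change of 0.54 (95% interval 0.34 to 0.73, adjusted p = 0.00833 from limma). With either RDF library left out, the adjusted p of Nr0b1 was 0.0719 and 0.0718. Esrrb (chromosome 12, 87702067 to 87862578) had 86.0 and 92.0 FPKM in DMSO and 99.9 and 104 FPKM in RDF. The groups of Esrrb did not overlap, as in 37.1% of all genes tested for RDF above DMSO. Its log2 fold change of 0.20 (95% interval 0.05 to 0.34) missed the threshold at an adjusted p of 0.0633. Nr5a2, on chromosome 1 from 138740161 to 138857004, was the lowest of the 10, with 1.23 and 1.39 FPKM in DMSO and 1.75 and 2.00 FPKM in RDF. Its RDF values were also the higher, but with about 44.2 to 83.0 fragments behind each value the log2 fold change of 0.31 (95% interval 0.04 to 0.59) missed the threshold too (unadjusted p = 0.0324).

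The Klf genes gave the most RNA of the set. Klf2, on chromosome 8 from 74842932 to 74845555, was the highest of the 10 genes in every library, with 191 and 165 FPKM in DMSO and 250 and 221 FPKM in RDF. Its groups did not overlap, and its log2 fold change was 0.40 (95% interval 0.17 to 0.63, adjusted p = 0.0319 from limma). The adjusted p of Klf2 rose to 0.0838 without the filter on low values, to 0.0615 without the mean-variance trend, and to 0.0728, 0.161 and 0.0843 without DMSO replicate 2, RDF replicate 1 and RDF replicate 2. Klf5 (chromosome 14, 99697910 to 99712624) had 119 and 111 FPKM in DMSO and 113 and 125 FPKM in RDF. The Klf5 groups overlapped, with a log2 fold change of 0.05 (95% interval -0.12 to 0.22, adjusted p = 0.637). Klf4 was the least abundant of the 3 Klf genes. Their summed FPKM was 362 and 325 in DMSO and 439 and 418 in RDF, between 57.6% and 61.1% of the summed FPKM of all 10 genes. The share of Klf4 in that sum was 14.2% and 14.9% in DMSO and 17.1% and 17.3% in RDF, while that of Klf5 was 32.9% and 34.2% in DMSO and 25.8% and 29.9% in RDF. Both shares lay apart between the groups, whereas the Klf2 share overlapped, at 52.9% and 50.9% against 57.1% and 52.8%. With 2 libraries a side the smallest two-sided p of an exact permutation test is 0.333, and the shares were not tested.

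**Figure D2:**
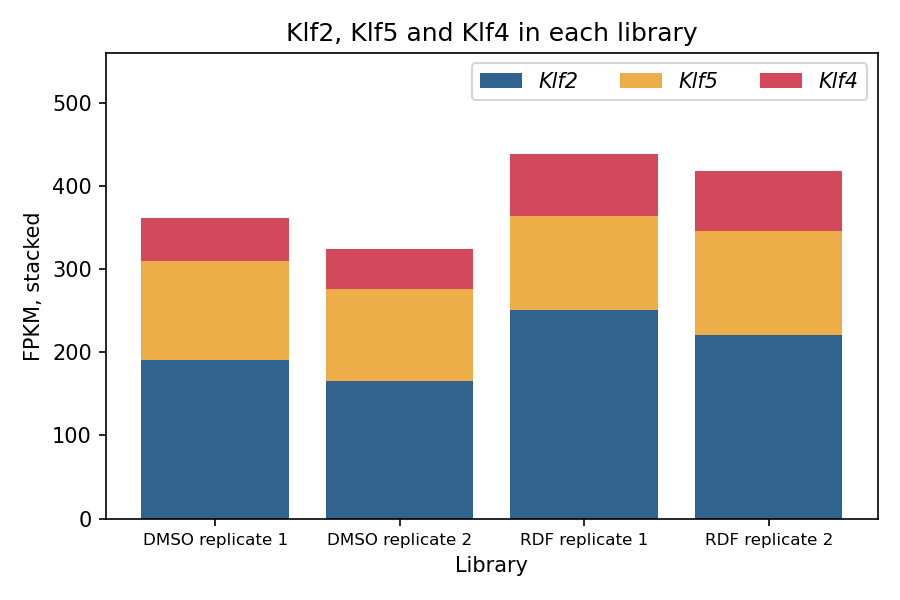
Stacked FPKM of Klf2 (blue), Klf5 (yellow) and Klf4 (red) in each library. The sum was 362 and 325 in DMSO and 439 and 418 in RDF, with the Klf5 part between 111 and 125 FPKM throughout.

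Prdm14 (chromosome 1, 13103538 to 13117244) had 9.40 and 8.03 FPKM in DMSO and 9.65 and 9.04 FPKM in RDF. These values overlapped, and the log2 fold change was 0.09 (95% interval -0.14 to 0.32, adjusted p = 0.504). Of 5 genes that Prdm14 is known to repress, Dnmt3a, Dnmt3b and Dnmt3l fell. Over all genes tested 13.3% rose and 8.28% fell. Dnmt3l, a catalytically inactive partner of the DNA methyltransferases, went from 540 and 483 FPKM in DMSO to 280 and 274 FPKM in RDF (log2 fold change -0.88, adjusted p = 0.00159 from limma). Dnmt3a, a de novo methyltransferase, fell by 0.54 on the log2 scale (adjusted p = 0.00498), and Dnmt3b, its paralog, by 0.25 (adjusted p = 0.0299, and 0.0506 without the filter). Fgfr2 rose from 0.784 and 0.731 FPKM to 1.42 and 1.35 FPKM (log2 fold change 0.44, adjusted p = 0.0409, which was 0.0606 with quantile normalization), and Fgfr1 had an adjusted p of 0.807. So 1 of the 5 rose and 3 fell, and with any single library left out 0 rose and 2 fell. Cbfa2t2, the corepressor that partners Prdm14, rose from 14.2 and 14.4 to 17.2 and 18.9 FPKM (log2 fold change 0.31, adjusted p = 0.0281, which was 0.0578 without the filter). With each library left out in turn, the adjusted p was 0.0559 to 0.137 for Dnmt3b, 0.0813 to 0.157 for Fgfr2 and 0.0690 to 0.141 for Cbfa2t2.

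**Figure D3:**
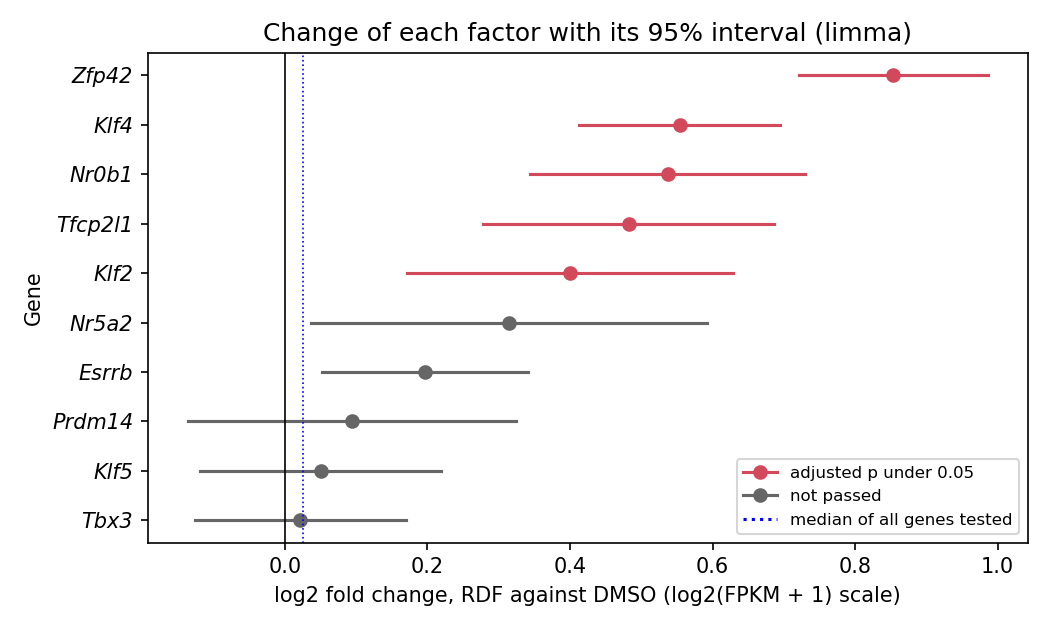
Log2 fold change of each of the 10 genes in RDF against DMSO with its 95% interval from limma. Red marks an adjusted p under 0.05, and the dotted line is the median of all genes tested, at 0.03. The intervals of Klf5, Tbx3 and Prdm14 include 0.

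FPKM is per length, so levels are set side by side here as a description. Esrrb, Tbx3, Klf4 and Nr5a2 have 7, 6, 4 and 2 annotated transcripts, and how this bears on their levels was not tested. In DMSO the order from high to low was Klf2, Klf5, Esrrb, Nr0b1, Klf4, Tfcp2l1, Zfp42, Tbx3, Prdm14 and Nr5a2. Neighbours in this order had ranges that lay apart, except Nr0b1 and Klf4, which overlapped in DMSO. The mean of Klf2 was 1.55 times that of Klf5, and the step from Prdm14 to Nr5a2, the widest, was 6.65 times. In RDF the order was the same but for Zfp42, which stood below Tfcp2l1 in both DMSO libraries and above it in both RDF libraries, with ratios of Zfp42 to Tfcp2l1 of 0.880 and 0.848 in DMSO and 1.23 and 1.03 in RDF. The summed FPKM of the 10 genes was 592 and 554 in DMSO and 737 and 725 in RDF. By mean level Klf2 stood at percentile 95.9 of the genes tested and Nr5a2 at percentile 8.16.

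All of 6 pluripotency factors listed here as shared by naïve and primed cells were detected in every library. Of these 2 rose and 2 fell (13.3% and 8.28% over all genes tested), with a median log2 fold change of -0.06. That median was -0.0319 without DMSO replicate 1, -0.0938 without DMSO replicate 2, -0.124 without RDF replicate 1 and -0.00169 without RDF replicate 2. Without RDF replicate 1 or RDF replicate 2, 1 rose and 1 fell. Sall4, a zinc finger partner of Oct4, went from 29.5 and 28.3 to 46.4 and 47.5 FPKM (log2 fold change 0.68, adjusted p = 0.00164 from limma), and Sox2 also rose (0.26, adjusted p = 0.0187, and 0.0525 without the trend). Utf1, a chromatin-bound ESC factor, went from 262 and 237 to 146 and 138 FPKM (-0.80, adjusted p = 0.00192). Pou5f1, which encodes Oct4, fell by 0.35 on the log2 scale (adjusted p = 0.0261, and 0.0697 without the filter). Nanog and Lin28a did not pass. The study itself classes Nanog and Sall4 as naïve genes. Its Q-PCR, which measured Zfp42 (as Rex1), Nanog and Esrrb, gave higher naïve markers with RDF than in mock-treated cells. That Q-PCR took in other lines as well, and its time course marked significance between days rather than between RDF and DMSO. The length of treatment behind the libraries here is not known. The adjusted p of Sox2 was 0.0567, 0.109 and 0.0943 without DMSO replicate 2, RDF replicate 1 and RDF replicate 2, and that of Pou5f1 was 0.0535, 0.0876 and 0.172 without DMSO replicate 1, RDF replicate 1 and RDF replicate 2.

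Of 9 other genes of the naïve state, 3 rose and 3 fell, against 13.3% and 8.28% of all genes tested. Their median log2 fold change was 0.12, which was 0.0492 without DMSO replicate 2. The count that rose was 1 without RDF replicate 1 or RDF replicate 2, and the count that fell was 2 without RDF replicate 2. Tcl1, a coactivator of Akt, went from 75.8 and 85.7 to 37.3 and 38.1 FPKM (log2 fold change -1.08, adjusted p = 0.000957 from limma). Dppa5a, an RNA-binding protein of pluripotent cells, went from 5493 and 5539 to 3232 and 2839 FPKM (-0.86, adjusted p = 0.00421, and 0.0674 without RDF replicate 2), and Dnmt3l is given above. Zfp296 (0.55, adjusted p = 0.00387), Fbxo15 (0.36, adjusted p = 0.00677) and Gbx2 (0.37, adjusted p = 0.0426) rose. Under median-ratio scaling the adjusted p of Gbx2 was 0.0519, and with each library left out it was 0.0674 to 0.163. That of Fbxo15 was 0.0587 and 0.0632 without RDF replicate 1 and RDF replicate 2. Tdh, Pecam1 and Dppa3 did not pass. Dnmt3l, counted here among the falls, is also on the list of genes that Prdm14 is known to repress.

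Of 11 formative and primed genes, 9 were tested, and 2 rose and 4 fell, against 13.3% and 8.28% of all genes tested. Their median log2 fold change was -0.11, which was -0.192 without DMSO replicate 2 and -0.227 without RDF replicate 1. Otx2, which drives the move out of the naïve state, went from 5.03 and 4.51 to 2.27 and 1.54 FPKM (adjusted p = 0.00767 from limma). Cldn6, Dnmt3a and Dnmt3b fell as well, and the latter pair is also on the list of genes that Prdm14 is known to repress. Zic2 and Zic5, zinc finger genes of formative cells, went the other way, Zic2 from 7.01 and 6.62 to 15.2 and 14.8 FPKM (log2 fold change 1.03, adjusted p = 0.00112) and Zic5 from 3.10 and 3.35 to 6.41 and 6.53 FPKM (0.82, adjusted p = 0.00332). Pou3f1, Sox3 and Lef1 did not pass. T and Fgf5 were below the filter on low values and were not tested. T had 1.63 and 1.27 FPKM in DMSO and 0.333 and 0.401 FPKM in RDF, while the Fgf5 values overlapped.

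**Figure D4:**
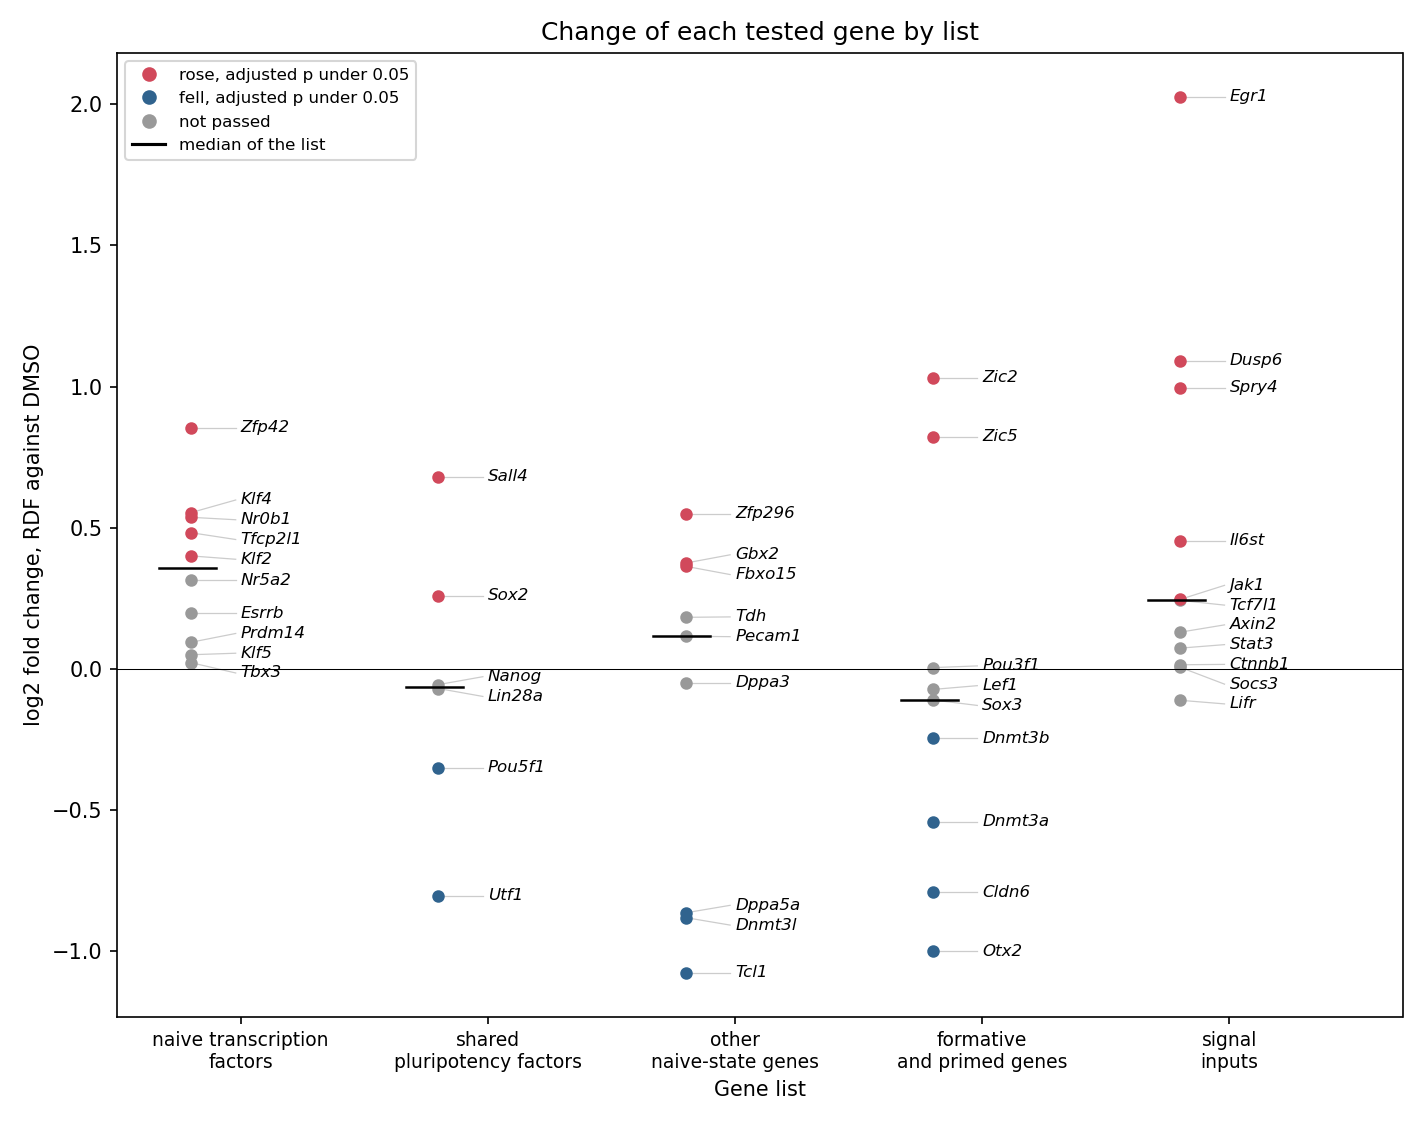
Log2 fold change of every tested gene in 5 lists (red rose, blue fell, grey did not pass, black line the median of a list). The 10 naïve transcription factors have a median of 0.36 and 0 falls, and the signal inputs have a median of 0.24 and 0 falls as well. The other pluripotency lists hold both rises and falls.

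For the signals that feed the network, RNA of 11 genes was read, and signal activity was not measured. Of these genes 5 rose and 0 fell by limma (0 were lower at an unadjusted p under 0.05), with a median log2 fold change of 0.24. Over all genes tested 13.3% rose and 8.28% fell. The median was 0.151 without DMSO replicate 2, and 3 rose without RDF replicate 1 or RDF replicate 2. On the LIF side, Il6st, the shared receptor chain gp130, went from 9.14 and 10.1 to 13.4 and 13.7 FPKM (log2 fold change 0.45, adjusted p = 0.0121), and Jak1 rose by 0.25 (adjusted p = 0.0353, and 0.0655 without the trend). The adjusted p was 0.0743 and 0.0886 for Il6st without RDF replicate 1 and RDF replicate 2, and 0.0931 to 0.161 for Jak1 with each library left out. Stat3 (0.07, adjusted p = 0.421), Lifr (-0.11, adjusted p = 0.473) and the STAT3 feedback gene Socs3 (0.01, adjusted p = 0.946) did not pass. The ERK-responsive genes Egr1, Dusp6 and Spry4 rose, and which part of RDF or which signal raised them was not tested. Egr1 went from 19.0 and 18.5 to 74.4 and 84.8 FPKM (2.03, adjusted p = 0.000174), Dusp6 from 11.7 and 12.0 to 25.5 and 27.2 FPKM (1.09, adjusted p = 0.000774). On the Wnt side, Tcf7l1 (0.24, adjusted p = 0.0808), Axin2 (0.13, adjusted p = 0.497) and Ctnnb1 (0.01, adjusted p = 0.867) did not pass.

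Klf5, Esrrb, Nr5a2 and Tbx3 are also used by trophoblast or endoderm, so markers of other cells were read beside them. Of 8 trophoblast markers 5 were tested, 3 (Gata3, Hand1 and Ascl2) rose and 0 fell (0 at an unadjusted p under 0.05), and their summed FPKM was 30.3 to 31.5 in DMSO and 44.2 to 44.3 in RDF. Over all genes tested 13.3% rose, and the trophoblast count was 2 without RDF replicate 1 (Ascl2 at an adjusted p of 0.0576) and 1 without RDF replicate 2 (Ascl2 at 0.0849 and Hand1 at 0.0708). Cdx2 and Elf5, which define trophoblast stem cells, were below 1 FPKM in all libraries. Of 8 primitive endoderm markers, 3 were tested and 1, Gata6, rose (log2 fold change 0.78, adjusted p = 0.0428), with sums of 10.6 to 13.1 FPKM in DMSO and 15.6 to 16.3 FPKM in RDF. The Gata6 call was lost with pseudocount 0.1, without the filter, with either scaling and without the trend (adjusted p from 0.0502 to 0.114). It was also lost without DMSO replicate 2 (log2 fold change 0.46, adjusted p = 0.0532), RDF replicate 1 (0.178) and RDF replicate 2 (0.171). Of 8 fibroblast markers, 6 were tested, 1 (Dcn) rose and 4 (Col1a1, Col1a2, Postn and Thy1) fell, against 13.3% and 8.28% of all genes tested. The sum of the fibroblast markers was 36.4 to 36.7 in DMSO and 22.0 to 23.4 in RDF. Of 6 mesendoderm markers 1, Eomes, was tested and it did not pass. T, whose values are given above, was below the filter. Without the filter 0 of the 6 rose and 1 fell, where 942 and 606 of all 18012 genes did. No marker was at 0 in all 4 libraries, and the part of these cells in the results was not tested. In bulk RNA, a change in the share of cells that express a gene and a change in RNA per cell cannot be told apart.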

How the data were processed

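RNA of 2 DMSO-treated and 2 RDF-treated HG165 samples was made into stranded mRNA libraries. The authors mapped reads with TopHat2 2.0.14 and Bowtie2 2.1.0 and estimated expression with Cufflinks 2.2.1 on mm9, as the submitters' processing notes and the methods name them, and deposited FPKM, 1 table per library. Depth was estimated, from steps of 1 fragment among low values of genes with a single transcript of at least 1500 nucleotides, at 9690000 and 11100000 fragments for DMSO and 12300000 and 11200000 for RDF, and the number of fragments behind a value, worked out with the longest transcript of the gene, is approximate. Between 44.2% and 48.4% of the low values per library came within 0.1 of a whole fragment, where an even spread gives 20%, so whole reads were not recovered.

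Samples were grouped by their titles. Values were taken as log2(FPKM + 1), which understates changes of low genes. The test was limma 3.58.1 under R 4.3.3 (lmFit, eBayes with a trend, no block), run on genes averaging 1 FPKM or more. Benjamini-Hochberg adjustment was over all 11733. A run on simulated data used a larger change than any of the 10 members had, so it cannot tell how well changes of their size are found. Intervals are limma's. All 10 members and the listed genes are named whatever their values. Members and lists were chosen with earlier results of these data known. Positions are from GENCODE on NCBIM37, where all 10 members matched, and promoters from RefSeq on GRCm38.p6. Patterns were compared as the Euclidean distance of centred log2 values, for the member with the largest rise, and no member fell. Alternatives were another pseudocount (0.1), filter (none, or 5 FPKM), scaling, no trend, the replicate block and leaving out each sample.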

Additional observations from a re-analysis of the deposited data

How the results depend on the processing

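Of 109 repeats of a single gene's change among the 10 members, 96 kept their direction and their side of the threshold, 8 lost the call, 1 gained it and 4 turned sign. The signs turned were those of genes that did not pass, Klf5 (log2 fold change between -0.0203 and 0.1201 when a sample was left out, lowest without RDF replicate 2), Tbx3 (-0.01 with median-ratio scaling, and between -0.0022 and 0.0456, lowest without DMSO replicate 1) and Prdm14 (between -0.0077 and 0.1963, lowest without DMSO replicate 2). The count of members that rose ran from 2 to 5 with single samples left out, where the lone sample is assumed to vary like the other group, and was 3 without RDF replicate 1 and 2 without RDF replicate 2. It was 4 without the filter and without the trend, 6 with the replicate block, and 5 under both scalings. The count of members that fell was 0 under all of these. Over all genes, 1561 rose and 972 fell, and 942 and 606 without the filter, where more genes at low levels were tested. Leaving out single samples gave 253 to 1121 genes that rose and 195 to 731 that fell, with 358 and 235 without RDF replicate 1 and 253 and 195 without RDF replicate 2. Counts given for the lists without the filter or with a sample left out belong beside these lower totals, not beside the shares of the full fit. The split moved to 1336 and 1179 under median-ratio scaling. With the replicate block 1651 genes rose and 1066 fell, and Esrrb passed at an adjusted p of 0.0406. The labels do not say whether the numbers pair the samples. Deviations of same-numbered samples had a Pearson r of 0.13 across genes, which are not independent, so this value cannot decide it.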

Other observations

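The Klf family holds further genes that rose beside Klf2 and Klf4. Of the 17 Klf genes 13 were tested, 7 rose and 0 fell by limma (0 were lower at an unadjusted p under 0.05), with a median log2 fold change of 0.24 against 0.03 over all genes tested, where 13.3% rose. Besides Klf2 and Klf4 these were Klf6, Klf9, Klf13, Klf15 and Klf16. Klf6, an immediate early gene in many cells, had 83.9 and 83.1 FPKM in DMSO and 131 and 129 FPKM in RDF (log2 fold change 0.63, adjusted p = 0.00159 from limma). Klf9, a target of nuclear receptors in many tissues, had 37.2 and 30.9 FPKM in DMSO and 54.0 and 49.3 FPKM in RDF (0.59, adjusted p = 0.0110, and 0.0854 and 0.0675 without RDF replicate 1 and RDF replicate 2). Klf15, known for its part in metabolism, had 2.50 and 2.83 FPKM in DMSO and 5.99 and 5.78 FPKM in RDF (0.91, adjusted p = 0.00319). Klf3, Klf5, Klf7, Klf8, Klf10 and Klf11 did not pass, and Klf3 and Klf11 turned sign under median-ratio scaling. The count of Klf genes that rose was 4 without the filter and 3 without RDF replicate 1 or without RDF replicate 2, and 5 without DMSO replicate 1 or DMSO replicate 2.

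Of 12 paralogs of the other factors 7 were tested, 3 rose and 0 fell by limma (1 was lower at an unadjusted p under 0.05, Prdm1), against 13.3% and 8.28% of all genes tested. The count that rose was 0 without the filter and without RDF replicate 1, and 1 without DMSO replicate 1 or without RDF replicate 2. Without DMSO replicate 2, 3 rose and Prdm1 fell (adjusted p = 0.0493). Yy1, to which Zfp42 is related, had 44.2 and 38.5 FPKM in DMSO and 68.5 and 56.2 FPKM in RDF (log2 fold change 0.58, adjusted p = 0.0173 from limma, and 0.0860 without RDF replicate 1), and Yy2 had 8.39 and 8.80 FPKM in DMSO and 12.5 and 11.1 FPKM in RDF (0.42, adjusted p = 0.0200, and 0.0592, 0.106 and 0.0633 without DMSO replicate 1, RDF replicate 1 and RDF replicate 2). The third was Ubp1, a paralog of Tfcp2l1 (0.33, adjusted p = 0.0351, 0.0753 without the filter, 0.0547 without the trend and 0.0619 with quantile normalization). Without DMSO replicate 1, RDF replicate 1 and RDF replicate 2 the adjusted p of Ubp1 was 0.113, 0.137 and 0.155. The ratio of Zfp42 to Yy1 was 0.585 and 0.673 in DMSO and 0.702 and 0.836 in RDF. Esrra, the paralog of Esrrb, had an adjusted p of 0.334, and Tfcp2, that of Tfcp2l1, had an adjusted p of 0.805. Ncoa3, a coactivator that Esrrb is known to use, had 25.9 and 25.8 FPKM in DMSO and 34.8 and 37.1 FPKM in RDF (log2 fold change 0.46, adjusted p = 0.00601, and 0.0576 without RDF replicate 2).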
